A study of Rattus norvegicus with 6 samples.

Results

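The heat shock proteins of the cytosol and the mitochondrion were examined in RNA-seq data from rat neonatal cardiomyocytes. They comprise 10 genes: Hspb1, Bag3, Hsph1, Dnajb1, Hspa1a, Hspa1b, Hspa8, Hsp90aa1, Hspd1 and Hspe1. Their rows were found by gene name, which gave 11 of the 43035 features in the count table because Hspa8 is listed at 2 positions. Unannotated transcripts, which the authors numbered and kept as rows of their own, were added where they overlapped a member on the same strand, and there were 7. The cells were cardiomyocytes of Sprague-Dawley rats, of postnatal day 1 by the labels and of 1 to 2 days by the paper's methods. They were prepared by differential plating and grown in a primary culture in which markers of other heart cells were also detected. The cultures were transfected with a small interfering RNA against DYRK1A, a protein kinase (si-DYRK1A), or with a scrambled one (si-NC). RNA was collected after 48 h, with 3 biological replicates per group according to the labels. Each library held 10325074 to 11921772 counts. The row of the targeted gene, Dyrk1a, held 3, 0 and 1 counts with si-NC and 2, 1 and 0 with si-DYRK1A. The unannotated transcript over it held 777, 919 and 968 counts against 971, 851 and 944, and the log2 fold change of 0.08 (95% confidence interval -0.04 to 0.20) was not lower in the si-DYRK1A libraries (adjusted p = 0.374, edgeR). The knockdown was therefore not seen in these RNA counts, and every direction given here rests on the labels of the libraries. The paper reports the knockdown at the protein level, by immunoblots of DYRK1A in neonatal cardiomyocytes given si-DYRK1A or si-NC. The counts hold no protein values, so a fall of the protein was not tested here.

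Heat shock proteins keep other proteins folded. Small heat shock proteins such as HSPB1 hold unfolding proteins, HSP70 proteins refold them with the help of J-domain proteins and nucleotide exchange factors, HSP90 matures client proteins such as kinases, and HSP60 with its lid HSP10 folds proteins inside the mitochondrion. Many of these genes are switched on by the heat shock factor HSF1, which binds inverted repeats of the unit GAA, called heat shock elements, close to the gene's start. In heart muscle, BAG3 joins HSP70 to small heat shock proteins at the Z-disc and sends damaged filamin to autophagy.

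The sequence before the start of 4 members is shown because these are the members with at least 1515 counts in every library, 3 of which were lower in the si-DYRK1A libraries. The sequences are from RefSeq on the build GRCr8, which is not the build of the count table, and each runs 5′ to 3′ from 150 bases before the start to the base before it. Capitals mark heat shock elements of 2 units, GAANNTTC or TTCNNGAA, where N is any base, and 3-unit forms, in which an element of each kind overlaps the other by a shared unit.
Hspb1 (chr12:26432302-26432451, minus strand): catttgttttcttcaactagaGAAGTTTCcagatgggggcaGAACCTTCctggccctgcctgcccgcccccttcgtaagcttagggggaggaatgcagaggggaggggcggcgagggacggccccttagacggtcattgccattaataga
Bag3 (chr1:192533310-192533459, plus strand): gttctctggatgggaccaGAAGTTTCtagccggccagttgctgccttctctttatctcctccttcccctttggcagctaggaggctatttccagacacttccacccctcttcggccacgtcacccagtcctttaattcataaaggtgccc
Hsph1 (chr12:10427218-10427367, plus strand): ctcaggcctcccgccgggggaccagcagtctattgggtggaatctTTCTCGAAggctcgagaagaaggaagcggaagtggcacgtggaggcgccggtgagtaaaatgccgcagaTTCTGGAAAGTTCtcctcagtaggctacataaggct
Dnajb1 (chr19:41431142-41431291, minus strand): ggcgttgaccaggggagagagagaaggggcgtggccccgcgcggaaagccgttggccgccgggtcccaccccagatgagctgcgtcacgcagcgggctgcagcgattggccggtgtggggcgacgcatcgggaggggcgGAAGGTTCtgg
Hspb1 had an element 129 to 122 bases before its start and another 109 to 102 bases before it. Bag3 had an element 132 to 125 bases before its start, with the same letters, GAAGTTTC, as the more distant element of Hspb1, and 1.39% of all windows held these letters or their reverse complement GAAACTTC, a motif picked after the sequences had been seen. Hsph1 had a 3-unit form 36 to 24 bases before its start and a further element 105 to 98 bases before it. Dnajb1 had an element 11 to 4 bases before its start and another 18 to 25 bases after it.

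A window of 300 bases, from 250 before to 50 after the start, was given for 8 members, all but Hspa1b and Hsp90aa1. An element of 2 units was found in 7 of the 8 windows, against 15.9% of the 33469 windows of all genes. A 3-unit form was found in 4 windows, those of Hspa8, Hsph1, Hspd1 and Hspe1, against 0.798% of all windows. Hspd1 and Hspe1 face away from each other, so that their windows share 211 bases, and all 5 matches of the one window, 2-unit and 3-unit together, lie at the same positions as those of the other. The window of Hspa1a held no match, and TATAAA on the strand of the gene was in none of the 8 windows and in 8.80% of all windows. The elements GAANNTTC and TTCNNGAA each equal their own reverse complement, and the 3-unit forms are each other's, so both strands were covered. A match is a run of letters and was not tested as a binding site.

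**Figure D1:**
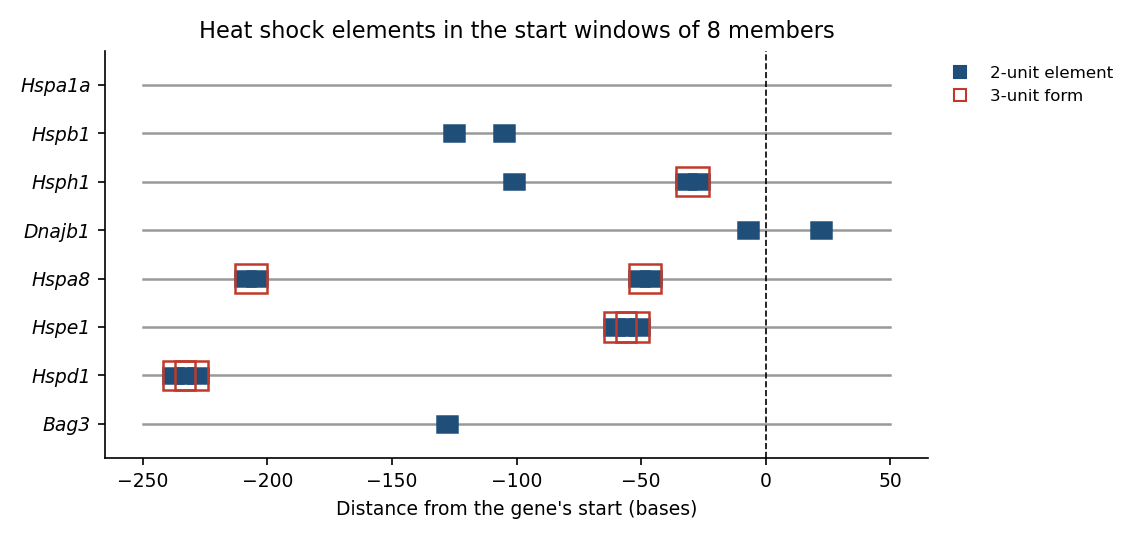
Positions of heat shock elements in the start windows of 8 members, with distance from the gene's start in bases on the horizontal axis. Filled boxes are 2-unit elements and open boxes are 3-unit forms, which contain overlapping 2-unit elements; 7 of the 8 windows hold at least 1 element, and Hspa1a holds none.

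Of the 11 rows of the members, 5 had enough counts to be tested, and 3 of these, Hspb1, Bag3 and Hsph1, were lower in the si-DYRK1A libraries. Over all 15513 features tested, 7.19% were lower, 8.03% higher and 15.2% changed in either direction. None of the 5 rows was higher by edgeR or DESeq2, and 0 were higher at an unadjusted p below 0.05 (edgeR). The median log2 fold change of the 5 rows was -0.21, and that of all features tested was 0.002. In the same 3 rows every si-DYRK1A library lay below every si-NC library, and 31.5% of all features tested had groups that did not overlap. The levels fell by 8.58% to 14.4% of that with si-NC.

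Hspb1 encodes the small heat shock protein HSP27, an ATP-independent holdase that also binds actin filaments. Its gene (ENSRNOG00000023546) lies at chr12:23839399-23841049 on the minus strand of Rnor_6.0. Its level, in CPM (counts scaled to libraries of equal size), was 654.6, 720.9 and 621.0 in replicates 1, 2 and 3 of si-NC and 538.2, 566.6 and 605.2 in those of si-DYRK1A. The lowest si-NC library was close above the highest si-DYRK1A library, and the groups did not overlap. The mean fell by 14.4%, from 666 ± 50.8 to 570.0 ± 33.6 CPM (SD, n = 3), with a log2 fold change of -0.22 ± 0.055 (SE; edgeR's quasi-likelihood test, adjusted p = 0.0115). In a bulk sample, fewer cells with an mRNA and less of it per cell cannot be told apart, here and for every gene below. Leaving out replicate 1 or replicate 2 of si-DYRK1A ended the call, with log2 fold changes of -0.18 and -0.22 and an adjusted p of 0.0624 and 0.0636 (edgeR).

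Bag3, at chr1:199941161-199965191 on the plus strand (ENSRNOG00000020298), encodes the co-chaperone that binds HSP70 through its BAG domain. It was measured at 164.3, 181.1 and 154.6 CPM in the si-NC libraries and at 139.1, 142.7 and 150.2 CPM in the si-DYRK1A libraries. The order of the libraries within each group was that of Hspb1, with si-NC replicate 2 and si-DYRK1A replicate 3 the highest of their groups. The mean fell by 13.6%, from 166.7 ± 13.4 to 144.0 ± 5.63 CPM (SD, n = 3), and the log2 fold change was -0.21 ± 0.056 (SE; edgeR, adjusted p = 0.0126). Leaving out replicate 2 of si-NC ended the call (log2 fold change -0.15, edgeR adjusted p = 0.0669), as did leaving out replicate 1 (0.0735) or 2 (0.0687) of si-DYRK1A.

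Hsph1 encodes HSP105, an HSP110 protein that releases nucleotide from HSP70, and lies at chr12:6322668-6341902 on the minus strand (ENSRNOG00000000902). Its level was 368.9, 356.9 and 366.9 CPM in the si-NC libraries and 338.6, 334.1 and 326.1 CPM in the si-DYRK1A libraries. The libraries of each group lay close together, and the groups did not overlap. The mean fell by 8.58%, from 364.2 ± 6.43 to 332.9 ± 6.34 CPM (SD, n = 3), with a log2 fold change of -0.13 ± 0.042 (SE; edgeR, adjusted p = 0.0387). Of the 3 called members it was the nearest to the threshold, and leaving out any library but replicate 2 of si-NC ended its call. The adjusted p of edgeR was then 0.130 and 0.0509 for leaving out replicates 1 and 3 of si-NC, and 0.0613, 0.115 and 0.171 for replicates 1, 2 and 3 of si-DYRK1A.

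Dnajb1, at chr19:24747178-24750919 on the plus strand (ENSRNOG00000021824), encodes HSP40, a J-domain protein that hands unfolded proteins to HSP70. It was measured at 148.0, 148.7 and 135.0 CPM in the si-NC libraries and at 149.8, 144.6 and 152.1 CPM in the si-DYRK1A libraries. The groups overlapped, and the log2 fold change of 0.05 (95% confidence interval -0.06 to 0.15) did not pass the test (adjusted p = 0.580, edgeR). Without si-NC replicate 3, its lowest library, the log2 fold change turned to -0.0019. A fall as large as that of Hspb1 or Bag3 lies outside this interval.

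With the values taken singly, the exact permutation test over the 6 libraries cannot give a p below 0.1, and it gave that p for Hspb1, Bag3 and Hsph1, with 0.4 for Dnajb1 (two-sided). The calls of the 3 lower members rest on the spread that edgeR shares across features. All 3 were also called by DESeq2. With limma on log2(FPKM + 1), where FPKM is the deposited level scaled by length and depth, none was called (adjusted p = 0.110 for Hspb1, 0.114 for Bag3 and 0.0583 for Hsph1), although all 3 had an unadjusted p below 0.05 there and kept their direction.

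**Figure D2:**
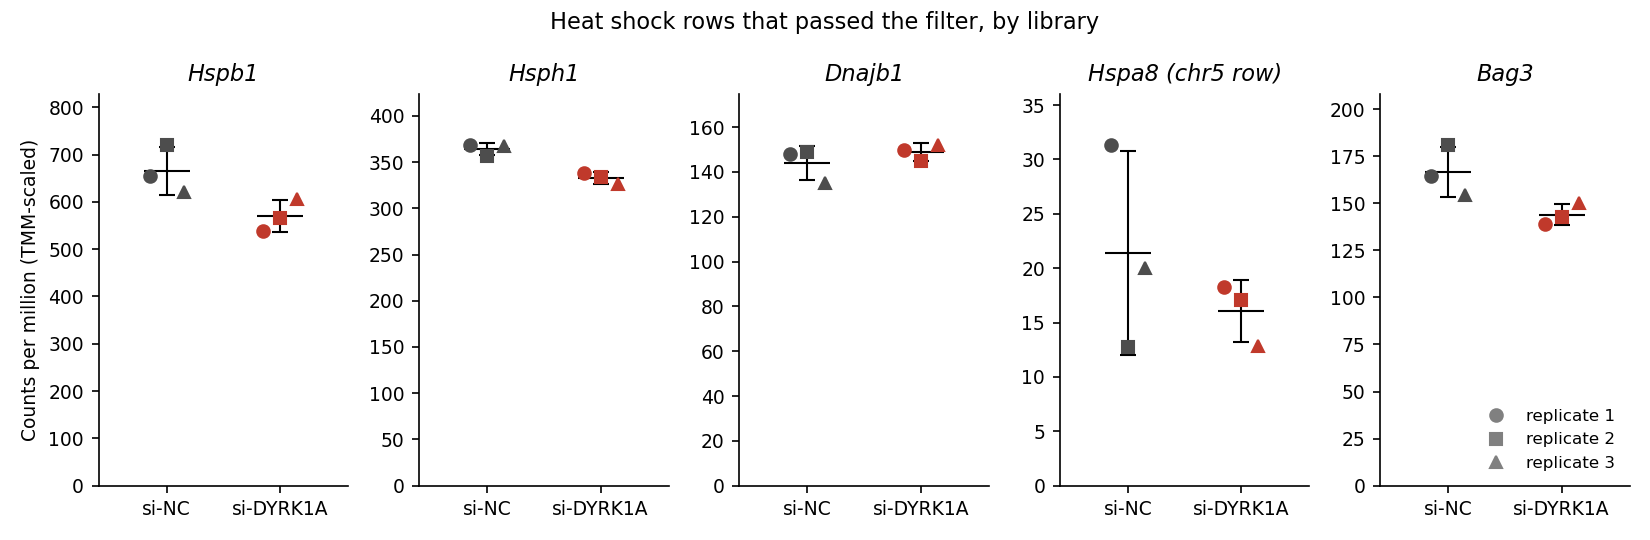
CPM after TMM scaling, from 0, for the 5 member rows that passed the filter, in 3 si-NC and 3 si-DYRK1A libraries. Symbols are the replicates, and bars are the group mean ± SD; the groups are apart for Hspb1 (621.0 or more against 605.2 or less), Hsph1 and Bag3, and overlap for Dnajb1 and for the Hspa8 row on chromosome 5.

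Among the 5 member rows with enough counts to test, Hspb1 was the highest per length, at 753 ± 59.1 FPKM in the si-NC libraries (SD, n = 3). It ranked 105 among the 43035 features. Hsph1 followed at 105.0 ± 1.56 FPKM (rank 865), Bag3 at 68.3 ± 5.64 FPKM (rank 1328) and Dnajb1 at 63.7 ± 3.40 FPKM (rank 1429). The levels of Bag3 and Dnajb1 did not differ beyond their spread. The Hspa8 row on chromosome 5 was at 10.1 ± 4.41 FPKM (rank 5078).

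The other 6 rows of the members were close to empty. Hspa1b, Hsp90aa1, Hspe1 and the Hspa8 row on chromosome 8 held 0 counts in all 6 libraries, where a count of 0 allows up to 3 counts, or 0.252 to 0.291 CPM, per library. Hspa1a, the inducible HSP70, held 4, 5 and 7 counts with si-NC and 3, 5 and 6 with si-DYRK1A. Hspd1, the mitochondrial HSP60, held 2, 2 and 2 counts against 0, 1 and 6. These rows passed no filter and give no comparison. Each of the 6 genes is covered over 100% of its length by an unannotated transcript on its own strand. In the whole table, 77.2% of the 6885 protein-coding genes covered over at least 50% of their length in this way had fewer than 10 counts in every library, against 45.4% of the 15365 others. The sources used here do not say how reads were shared between an annotated gene and an unannotated transcript, and this was not tested, so a count of 0 says nothing of whether the gene was expressed.

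The unannotated transcripts themselves held few counts. The highest were the longer of the 2 over Hspa1b, which covers 18 other annotated genes as well, with 56 to 76 counts per library, and that over Hsp90aa1, which covers 2 others, with 26 to 64. The transcript over Hspd1 held 6 to 12 counts, and the other 4 held at most 13 counts in any library. The transcript over Hsp90aa1 held 33, 64 and 49 counts with si-NC and 46, 35 and 26 with si-DYRK1A, groups that overlapped (log2 fold change -0.41, 95% confidence interval -0.94 to 0.12, adjusted p = 0.325, edgeR). The longer transcript over Hspa1b differed by 0.05 on the log2 scale (-0.33 to 0.43, adjusted p = 0.896, edgeR) and that over Hspd1 by 0.44 (-0.53 to 1.41, adjusted p = 0.593, edgeR). With the counts of each member and its unannotated transcripts summed, Hsp90aa1 differed by -0.41 (adjusted p = 0.325, edgeR), Hspd1 by 0.40 (adjusted p = 0.598, edgeR) and Hspa1a with Hspa1b by -0.03 (adjusted p = 0.950, edgeR). None of these intervals excludes a change of the size seen for Hspb1, and for Hspa1a alone, Hspe1 and the Hspa8 row on chromosome 8 the sum stayed below the filter.

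**Figure D3:**
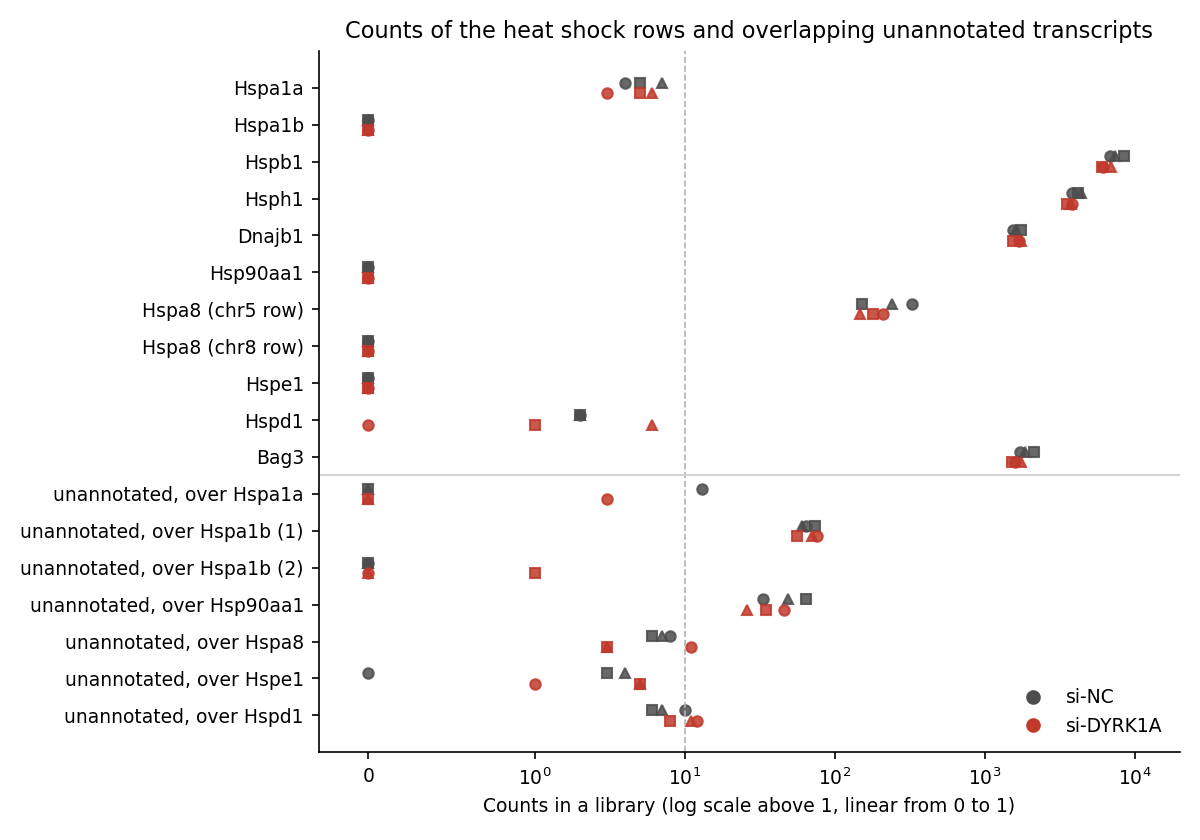
Counts per library for the 11 member rows and the 7 unannotated transcripts over them, on an axis that is logarithmic above 1 and linear from 0 to 1; grey is si-NC, red is si-DYRK1A, and circles, squares and triangles are replicates 1, 2 and 3. Only Hspb1, Hsph1, Dnajb1, Bag3 and the Hspa8 row on chromosome 5 lie right of the dashed line at 10 counts among the member rows.

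HSPA8, the constitutive HSP70 that BAG3 and DNAJB1 work with, could be followed only through rows that may share its reads. The row named Hspa8 on chromosome 5 (ENSRNOG00000032585, chr5:99031013-99033107) spans no more than its own length of 2095 bases, whereas the gene with 0 counts on chromosome 8 spans chr8:44990014-44993179. It held 31.4, 12.8 and 20.0 CPM with si-NC and 18.3, 17.0 and 12.8 CPM with si-DYRK1A. The si-NC libraries differed so much among themselves that the log2 fold change of -0.41 carried a 95% confidence interval from -1.48 to 0.67 (adjusted p = 0.601, edgeR). Without a single library it ranged from -0.67 to -0.03, and it never passed the test.

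A further 4 rows are described by the authors as HSPA8 or a pseudogene of it, a set picked after the values had been seen. LOC680121 held most of the reads of the 6 rows, 67.9%, with 2181, 1406 and 2353 counts with si-NC and 1701, 1838 and 1979 with si-DYRK1A. Here too si-NC replicate 2 was the lowest of its group. The log2 fold change was -0.09 for LOC680121 (adjusted p = 0.880, edgeR), -0.14 for Hsc70-ps2 (adjusted p = 0.214, edgeR) and -0.97 for LOC688655 (adjusted p = 0.351, edgeR). The pseudogene LOC688932, with 63, 43 and 44 counts against 37, 25 and 25, was lower (log2 fold change -0.77 ± 0.26 SE, adjusted p = 0.0486, edgeR). Its call ended without si-NC replicate 1 (log2 fold change -0.50, adjusted p = 0.286, edgeR), without si-DYRK1A replicate 2 (adjusted p = 0.164) or 3 (0.181), and by DESeq2 (adjusted p = 0.131). Summed, the 6 rows held 264 ± 66.3 CPM in the si-NC libraries and 236.5 ± 12.8 CPM in the si-DYRK1A libraries (SD, n = 3; log2 fold change -0.16, 95% confidence interval -0.76 to 0.45, adjusted p = 0.733, edgeR). Reads that match several of these copies cannot be assigned to a gene from the counts, so none of the values is a level of Hspa8 itself.

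HSP90AA1, the inducible cytosolic HSP90, was in the same position. The rows LOC103692716, inside the span of the unannotated transcript over Hsp90aa1, and LOC680491 are described as this protein, and held 110 to 139 and 25 to 33 counts with si-NC and 98 to 108 and 22 to 30 with si-DYRK1A. Their sum with the empty Hsp90aa1 row had a log2 fold change of -0.26 (95% confidence interval -0.55 to 0.02, adjusted p = 0.227, edgeR). With that transcript added, the counts were 205, 224 and 191 against 166, 173 and 157. Scaled to libraries of equal size, the groups overlapped, at 18.2 ± 1.96 CPM against 14.8 ± 1.37 CPM (SD, n = 3). The log2 fold change was -0.29 (95% confidence interval -0.53 to -0.06, adjusted p = 0.0940, edgeR). The sum did not pass the test.

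**Figure D4:**
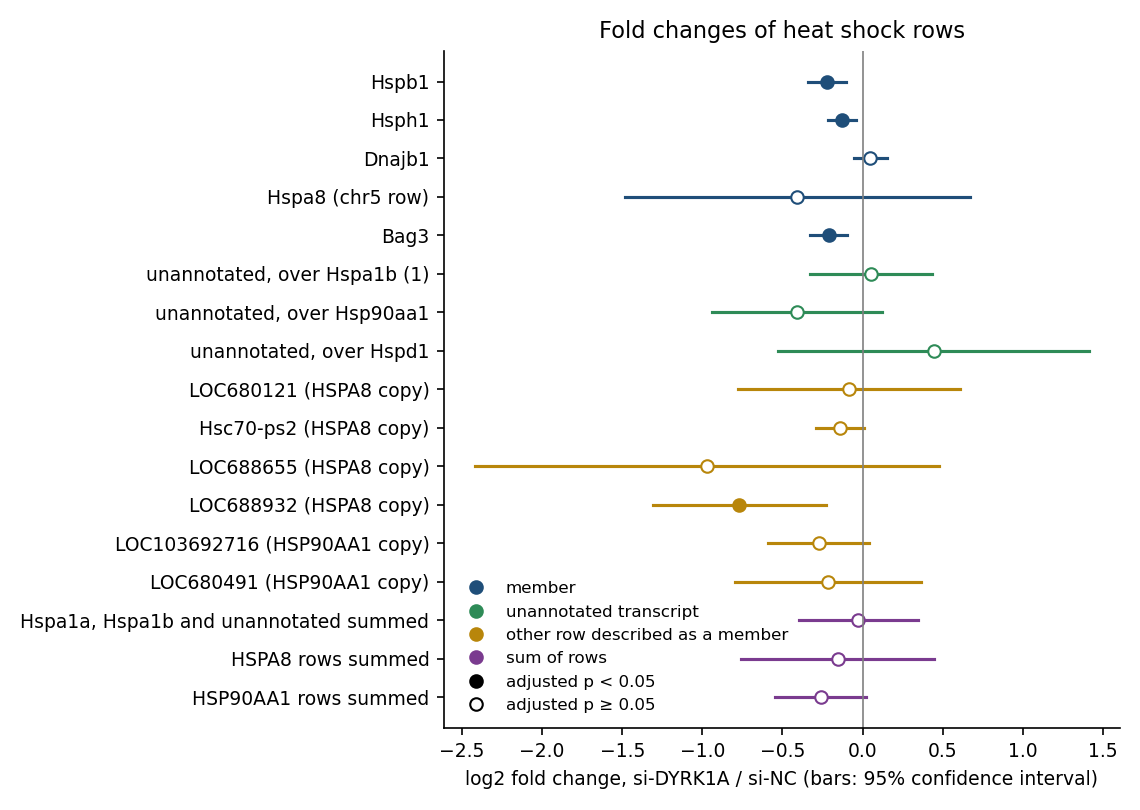
log2 fold change of si-DYRK1A over si-NC, with 95% confidence intervals, for the member rows, unannotated transcripts over members, other rows described as HSPA8 or HSP90AA1, and sums of rows; (1) is the longer transcript over Hspa1b. Filled points have an adjusted p below 0.05: Hspb1 (-0.22), Hsph1 (-0.13), Bag3 (-0.21) and the pseudogene LOC688932 (-0.77).

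Chaperones and other genes around the members were described through 10 lists of 111 genes, called the chaperone lists. Not every gene in them encodes a chaperone: proteases, autophagy partners of BAG3 and regulators of HSF1 are included. Of the 77 that could be tested, 15 were higher in the si-DYRK1A libraries and 3 lower, against 8.03% and 7.19% of all features, and their median log2 fold change was 0.05. Of the 18 calls, 8 held whichever library was left out. The same shares of all features stand beside the counts of each list below. The lists were chosen with earlier results of these data known, and nothing was tested over them.

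Among the partners of BAG3 in selective autophagy, the 2 calls went in opposite directions. Flnc, the muscle filamin that BAG3 hands to autophagy, was measured at 1075, 1148 and 935 CPM in the si-NC libraries and at 831.0, 818 and 849 CPM in the si-DYRK1A libraries, and fell by 20.9% (log2 fold change -0.34 ± 0.063 SE, adjusted p = 0.00371, edgeR). Synpo2, a Z-disc protein that links BAG3 to membrane fusion, rose from 320.0 ± 21.9 to 583 ± 33.7 CPM (SD, n = 3; log2 fold change 0.87 ± 0.053 SE, adjusted p = 2.23e-09, edgeR). Both kept their call without any single library. Of the other 4 partners tested, none passed, with Stub1, the ubiquitin ligase CHIP, at 0.13 (adjusted p = 0.120, edgeR) and the highest per length.

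Of the small heat shock proteins other than Hspb1, 4 were tested and 1 passed. Hspb6, at 36.8 ± 4.96 CPM in the si-NC libraries and 29.2 ± 1.08 CPM in the si-DYRK1A libraries (SD, n = 3), was lower (log2 fold change -0.33, adjusted p = 0.0188, edgeR), and the other 3 tested did not pass. Leaving out replicate 1 of either group or replicate 2 of si-DYRK1A ended its call (adjusted p = 0.0642 to 0.138, edgeR). Hspb7, a heart small heat shock protein and the highest of the list per length, differed by -0.04 (adjusted p = 0.703, edgeR), and without si-NC replicate 2 by 0.03.

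In the HSP70 machinery, Hspa4, an HSP110 relative of Hsph1 with 8178 to 9870 counts per library, differed by 0.00 (adjusted p = 0.966, edgeR), a value whose sign turned under 9 of 18 alternatives. Its paralogue Hspa4l was higher (log2 fold change 0.36, adjusted p = 0.0140, edgeR), and Hspa12a, a distant HSP70 relative, was lower (log2 fold change -0.26, adjusted p = 0.0480, edgeR). Of the 6 other HSP70 and HSP110 genes tested, 1 was higher and 1 lower by edgeR. DESeq2 called neither Hspa4l nor Hspa12a. Leaving out replicate 2 of si-NC or replicate 1 of si-DYRK1A ended the call of Hspa4l (adjusted p = 0.0506 to 0.0574, edgeR). Leaving out replicate 1 or 2 of si-NC, or 2 or 3 of si-DYRK1A, ended that of Hspa12a (adjusted p = 0.0732 to 0.271, edgeR). Of 10 J-domain genes of the cytosol and nucleus, Dnajc9, a histone chaperone, was higher (log2 fold change 0.24, adjusted p = 0.00105, edgeR) and none was lower by edgeR or DESeq2 (1 was at an unadjusted p below 0.05 by edgeR), with Dnaja1, the highest, at -0.08 (adjusted p = 0.334, edgeR; 0.0454 without si-NC replicate 2). None of 4 nucleotide exchange factors and cofactors passed by edgeR or DESeq2, with 0 at an unadjusted p below 0.05 (edgeR), and St13, the highest, was at -0.03 (adjusted p = 0.677, edgeR). Of 8 HSP90 co-chaperones tested, Unc45b, the myosin chaperone of striated muscle, was higher (log2 fold change 0.16, adjusted p = 0.0131, edgeR), but not without si-NC replicate 3 or si-DYRK1A replicate 2 (adjusted p = 0.0634 to 0.0697, edgeR). Stip1, which joins HSP70 to HSP90 and was the highest, was at 0.06 (adjusted p = 0.385, edgeR).

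Mitochondrial chaperones and proteases, the compartment of Hspd1 and Hspe1, gave 3 higher genes of 8 tested by edgeR, and 0 by DESeq2. Of all features tested, 8.03% were higher by edgeR, and 856 of 15513 by DESeq2. None was lower by either tool, or at an unadjusted p below 0.05 (edgeR). The higher genes were Spg7, a subunit of an inner membrane protease (log2 fold change 0.23), Dnaja3, the mitochondrial J-domain protein (0.16), and Grpel1, the nucleotide exchange factor of mitochondrial HSP70 (0.15), with adjusted p from 0.0201 to 0.0301 (edgeR). Hspa9, the mitochondrial HSP70 itself, differed by 0.07 (adjusted p = 0.280, edgeR). None of the 3 kept its call without each library: Spg7 lost it without replicate 3 of si-NC and without 1 or 3 of si-DYRK1A, Dnaja3 without replicate 1 of si-NC or any of si-DYRK1A, and Grpel1 without any library but replicate 3 of si-NC (adjusted p = 0.0584 to 0.141, edgeR).

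Of 13 subunits of the cytosolic chaperonin TRiC and of prefoldin, which fold actin and tubulin, 4 were higher by edgeR and 2 by DESeq2. By edgeR, 8.03% of all features tested were higher, and by DESeq2 856 of 15513. None was lower by either tool, or at an unadjusted p below 0.05 (edgeR). Pfdn6 (log2 fold change 0.23, adjusted p = 0.00351, edgeR) kept its call without each library. Tcp1 (0.17), Cct8 (0.14) and Cct4 (0.12) did not: Tcp1 lost it without replicate 1 of si-NC and without 2 or 3 of si-DYRK1A, and the other two without any library but replicate 3 of si-NC (adjusted p = 0.0587 to 0.170, edgeR). Pfdn1, the highest per length, was at -0.06 (adjusted p = 0.412, edgeR). Of 16 chaperones of the endoplasmic reticulum, 3 were higher by edgeR and by DESeq2, beside the same 8.03% and 856 of all features. None was lower by either tool, or at an unadjusted p below 0.05 (edgeR). Sdf2l1 (log2 fold change 0.45), Manf (0.25) and Dnajb11 (0.18) kept their calls without each library (adjusted p of at most 0.0312 with a library left out, edgeR). Serpinh1, the collagen chaperone HSP47 and the highest of the list, was at -0.09 (adjusted p = 0.210, edgeR).

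Of 6 regulators of heat shock transcription, 4 were tested. Hsf1 itself held at most 5 counts in a library and was not tested. Ier5, which promotes HSF1 activity through a phosphatase, was measured at 224.4, 214.0 and 222.4 CPM in the si-NC libraries and at 257.5, 261.6 and 282.4 CPM in the si-DYRK1A libraries, and was higher (log2 fold change 0.28 ± 0.047 SE, adjusted p = 0.000239, edgeR) with and without each library. Hsbp1, which binds HSF1 and was the highest of the list, differed by 0.05 (adjusted p = 0.502, edgeR).

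**Figure D5:**
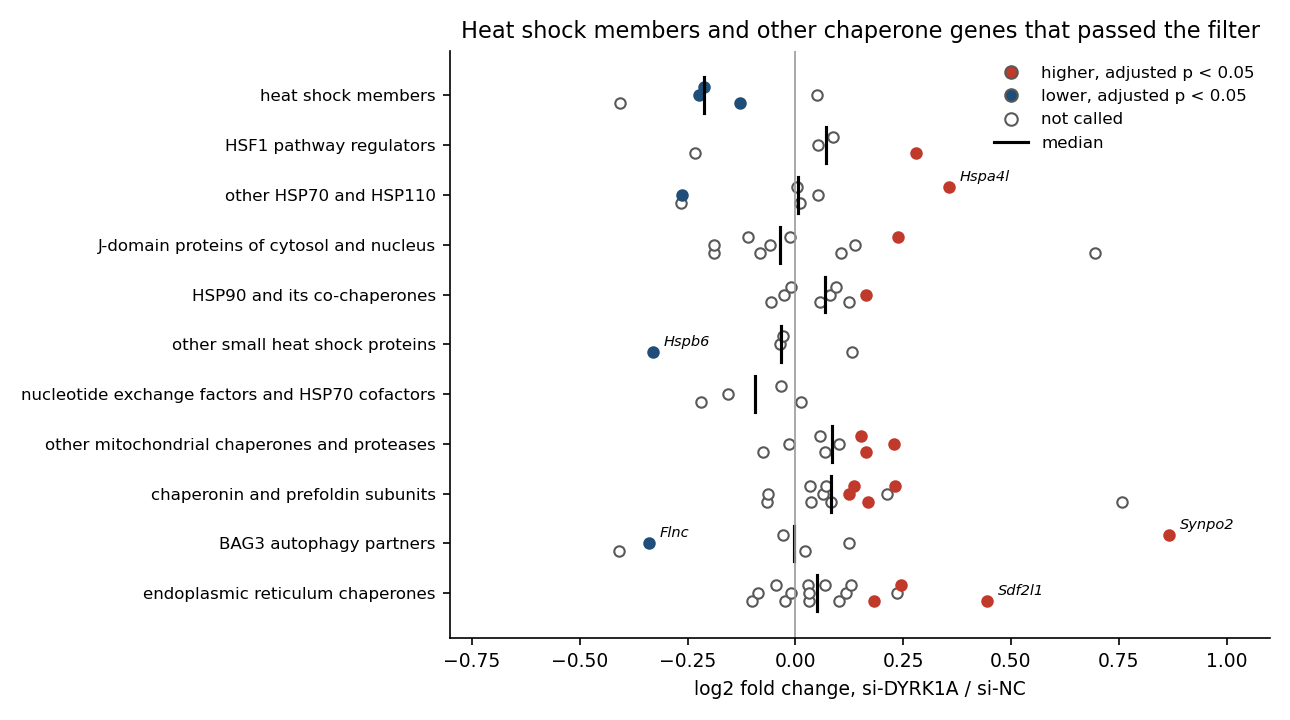
log2 fold change of si-DYRK1A over si-NC for each tested gene of the heat shock members and 10 lists of other chaperones and partners. Red points are higher and blue points lower with an adjusted p below 0.05, white points did not pass, and black bars are medians, -0.21 for the 5 member rows and between -0.09 and 0.08 for the other lists.

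By Euclidean distance over the 6 libraries on centred log2 CPM, the genes nearest to the mean of the 5 member rows were Pde8a, RGD1565183 and AABR07067267.1, among the 3596 annotated genes whose log2 CPM averaged at least 5 (distances 0.0436 to 0.0840). That mean followed the scatter of the Hspa8 row. Without it, an alternative chosen after seeing the data, the nearest were Zc3h7b, Tex2 and Vash1 (distances 0.0345 to 0.0370). The 6 libraries are few, and the genes share their depth and composition.

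Some markers of the cells in the culture differed between the groups, and others did not. Over all features tested, 8.03% were higher and 7.19% lower by edgeR. By DESeq2, 856 of 15513 were higher and 790 lower. Of 6 cardiomyocyte markers tested out of 11, 3 were higher in the si-DYRK1A libraries by edgeR (Nppa, Actn2 and Pln) and 2 by DESeq2. The other 3 did not pass, with log2 fold changes of 0.04 for Tnnc1, -0.14 for Tnnt2 and -0.11 for Myl3 (adjusted p = 0.592, 0.595 and 0.0878, edgeR). The groups of Myl3 did not overlap, and 1 marker of the list was lower at an unadjusted p below 0.05 (edgeR). Nppa and Actn2 kept their calls without each library. The groups of Pln overlapped, and its call ended with DESeq2 (adjusted p = 0.0928) and without any library but replicate 3 of si-NC (adjusted p = 0.0551 to 0.217, edgeR). The summed level of the list was 12710 to 13807 CPM in si-NC and 15269 to 16010 CPM in si-DYRK1A libraries. Nppa was the largest part of this sum, at 7557 ± 371 CPM with si-NC and 9782 ± 475 CPM with si-DYRK1A (SD, n = 3). The mean of Actn2 went from 1359 to 1679 CPM and that of Myl3 from 2362 to 2188 CPM, so the sum is not a level of the list as a set. The defining markers Tnni3, Myh6, Myh7 and Myl2 were listed at 0 counts, and each is covered by an unannotated transcript.

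Fibroblast markers, of which 6 were tested, summed to 21531 to 26245 CPM in si-NC and 20368 to 21107 CPM in si-DYRK1A libraries, with Pdgfra at 0. Lum and Postn were higher, with and without each library. Col3a1 (log2 fold change 0.02), Dcn (0.25) and Tcf21 (0.14) did not pass (adjusted p = 0.807, 0.332 and 0.124, edgeR). Col1a1, a collagen chain and the highest of the list per length, was at 14341 ± 1917 CPM with si-NC and 11113 ± 196 CPM with si-DYRK1A (SD, n = 3), groups that did not overlap. Its log2 fold change of -0.37 did not pass with edgeR (adjusted p = 0.0869) but did with DESeq2 (adjusted p = 0.0143), and with edgeR without si-NC replicate 2 (log2 fold change -0.26, adjusted p = 7.22e-05) or 3 (-0.46, adjusted p = 0.00177). Of 4 endothelial markers, Tek and Cdh5 were lower, and the sum was 126 to 138 CPM against 100.4 to 109. Kdr (log2 fold change -0.01) and Emcn (0.03) did not pass (adjusted p = 0.954 and 0.922, edgeR). Tek kept its call without each library, and Cdh5 lost it without replicate 1 of si-NC and without 1 or 3 of si-DYRK1A (adjusted p = 0.0531 to 0.0668, edgeR). None of 2 smooth muscle markers passed by edgeR or DESeq2, with 1 lower at an unadjusted p below 0.05 by edgeR (556 to 563 CPM against 545 to 569). Of 4 macrophage markers Cd163, with 43 to 116 counts per library, was higher, but not without si-DYRK1A replicate 2 (adjusted p = 0.0624, edgeR). The other 3 did not pass, with log2 fold changes of -0.13 for Csf1r, -0.21 for Ptprc and -0.54 for Adgre1, of which 2 were at an unadjusted p below 0.05 (edgeR), and the list summed to 102 to 114 CPM against 96.1 to 107. The part of these shifts in the values of Hspb1, Bag3 and Hsph1 was not tested.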

How the data were processed

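RNA-seq libraries of rat neonatal cardiomyocytes, 3 with si-NC and 3 with si-DYRK1A, were grouped and numbered by their labels. According to the methods, paired-end reads were aligned with HISAT2 to Rnor_6.0. The authors deposited raw counts per feature, with unannotated transcripts as features of their own, and FPKM values, which are counts scaled by feature length and library. Which tool counted the reads, and with which annotation release and strand setting, the sources used here do not give. The submitters' processing notes instead name Bowtie 0.12.2 and the mouse build mm8, and the labels a TruSeq kit where the methods have a NEBNext kit. Nothing says whether replicates came from separate cultures or animals, so p-values measure the spread between these libraries.

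The counts were fitted in R 4.3.3 by the quasi-likelihood method of edgeR 4.0.16 (robust, TMM-scaled, both groups in a single fit). Features entered when filterByExpr kept them, which asks for about 10 counts in 3 libraries and 15 in total. All p-values are two-sided, with Benjamini-Hochberg adjustment over the 15513 features that entered, a threshold of 0.05 and no fold threshold. CPM are TMM-scaled. Library totals ran from 10325074 to 11921772 counts, and limits for counts of 0 cover counting error only.

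The members and lists were chosen with earlier results of these data known. Named genes are the members, the unannotated transcripts on their strand, the called genes of each list (the 4 smallest p where more were called), its gene with the highest mean FPKM, and Hsf1. Rows described as HSPA8 or HSP90AA1 were picked once the values were known. GenomicRanges 1.54.1 found the overlaps, and matplotlib 3.10.9 in Python 3.11.15 drew the figures. Promoter windows were matched by symbol to RefSeq sequences on GRCr8.

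As alternatives, DESeq2 1.42.0 replaced edgeR, RLE factors or bare library sizes replaced TMM, the filter was dropped or set to 10 counts in each library, the replicate number entered as a block, members were summed with unannotated transcripts or copies, and every library was omitted in turn. The deposited FPKM were also tested with limma 3.58.1 as log2(FPKM + 1) and log2(FPKM + 0.1) where FPKM passed 0.5 in 3 libraries, and the first of these with no filter. Of these steps, only the edgeR fit was tested on simulated counts.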

Additional observations from a re-analysis of the deposited data

How the results depend on the processing

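Of the 11 member rows, 6 held too few counts to test, for a reason that was not tested, and the called changes of members were below 15% with 3 libraries per group. The 3 calls of members (Hspb1, Bag3, Hsph1) held under DESeq2, RLE normalization, library size only, both other count filters and all sums of rows. Under limma on log2(FPKM + 1), on log2(FPKM + 0.1), or on the former without the filter, 0 members were called in either direction, with 3 at an unadjusted p below 0.05 in each, and edgeR called 0 without si-DYRK1A replicate 1 or 2, again with 3 at an unadjusted p below 0.05, so that leaving out a library gave 0 to 2 calls, all lower. The cause was not tested. These limma settings also gave 1197, 1162 and 667 features called over the whole table (662, 644 and 383 higher, 535, 518 and 284 lower), against 2360 (1245 and 1115), 1646 with DESeq2 and 1614 to 2210 without a library. Of the 10 chaperone lists they called 8, 8 and 6 genes, all higher, and 0 lower (4 at an unadjusted p below 0.05 each), and DESeq2 called 11, of them 9 higher; leaving out a library gave 10 to 16 calls, 9 to 13 higher and 1 to 4 lower.

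Over 18 alternatives and 47 named genes and transcripts, 838 fold changes were computed, of which 690 kept direction and call, 129 lost the call, 5 gained it and 14 changed sign, all of these in values that had not passed the test. Hspa4 turned to -0.0012 with DESeq2, -0.0011 with RLE, -0.022 with library size only, -0.0053 without a filter, -0.00041 in each limma setting, -0.018 without si-NC replicate 1 and -0.0004 without si-DYRK1A replicate 2. Leaving out each library in turn, Hspa4 ranged from -0.018 to 0.013. Under the same omissions Dnajb1 ranged from -0.0019 (without si-NC replicate 3) to 0.072, the longer unannotated transcript over Hspa1b from -0.052 (without si-NC replicate 3) to 0.14 with -0.031 when si-DYRK1A replicate 1 was omitted, Hspb7 from -0.086 to 0.034 (without si-NC replicate 2) and Cnn1 from -0.024 to 0.0078 (without si-DYRK1A replicate 3).

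No pairing of the samples by replicate number was seen: deviations of libraries with the same number from their group means correlated at 0.058, -0.026 and -0.0041, and not every library correlated best with its own number. With 3 libraries per group, these values cannot show that the samples were unpaired. With the number as a block, 2269 features were called, 2 members (Hsph1 had an adjusted p of 0.0818, edgeR) and 15 genes of the chaperone lists.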
